A study of Mus musculus with 6 samples.

Results

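The nuclear genes for the subunits of the oxidative phosphorylation machinery were compared between B41KO and B41HET microglia. The genes were taken by symbol, from every array probe whose transcript accession led to a name starting with Nduf, Uqcr, Cox4i, Cox5, Cox6, Cox7, Cox8 or Atp5, or to Sdha, Sdhb, Sdhc or Sdhd. This gave 92 genes of the 23462 named genes tested, measured by 116 of the 56601 probes tested. They comprise 36 subunits of complex I, 8 complex I assembly factors (Ndufaf1 to Ndufaf8, which the symbol rule takes in although they are not subunits), 4 of complex II, 8 of complex III, 19 of complex IV and 17 of complex V. Ndufa4 and Ndufa4l2, once counted with complex I, were placed with complex IV. No probe led to Cox5b or Ndufb1.

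B41HET mice carry Bhlhe41 dTomato-Cre/+ and B41KO mice Bhlhe41 dTomato-Cre/dTomato-Cre, so both genotypes hold at least 1 copy of the insert and no wild-type mice were on the arrays. In this allele a reporter and recombinase cassette ending in a polyadenylation signal sits before the start codon of Bhlhe41, which ends translation of Bhlhe41 from that copy, and it is carried by all cells of the mouse. The cells were live CD45lo Cx3cr1+ CD11b+ cells sorted from Percoll-enriched brain cells of young mice, 3 samples a genotype. The methods describe each sample as a pool of several mice, whereas the labels speak of 3 mice a genotype.

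Oxidative phosphorylation passes electrons from NADH and succinate to oxygen through complexes I to IV of the inner mitochondrial membrane, and complex V, the ATP synthase, uses the proton gradient they build to make ATP. Most subunits are encoded in the nucleus and a small set in the mitochondrial genome. Resting microglia rely largely on this pathway for ATP, and inflammatory activation is known to move them towards glycolysis. Bhlhe41 is a transcriptional repressor that binds the E-box CACGTG, while NRF1, ETS-family factors such as GABP, and YY1 are known regulators of respiratory chain genes.

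Promoter windows are shown for 4 of the 8 genes with an adjusted p of 0.05 or less, because these are genes whose difference between genotypes passed the test. Atp5d, which also passed, has 2 overlapping windows that hold none of the motifs below and are not printed, and windows of Cox6a2, Cox6c and Atp5a1 were not analysed here. Each window runs from 250 bases before to 50 bases after the RefSeq transcript start on GRCm38.p6, is written 5′ to 3′ on the strand of the gene, and has in capitals every match on either strand to CACGTG (E-box), GCGC and TGCGC with any 1 base between them (NRF1), CCGGAAG (ETS) or AAGATGGC (YY1). Ndufb4 lies at chr16:37654319-37654618, Ndufa1 at chrX:37191189-37191488, Atp5l at chr9:44920693-44920992 and Ndufa10 at chr1:92473709-92474008, all 4 on the minus strand.
Ndufb4: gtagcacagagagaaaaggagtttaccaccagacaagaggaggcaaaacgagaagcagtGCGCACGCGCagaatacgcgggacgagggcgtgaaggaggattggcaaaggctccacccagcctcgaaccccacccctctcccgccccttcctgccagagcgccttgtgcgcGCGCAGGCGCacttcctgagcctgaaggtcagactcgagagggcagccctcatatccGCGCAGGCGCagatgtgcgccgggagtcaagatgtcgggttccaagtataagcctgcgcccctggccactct
Ndufa1: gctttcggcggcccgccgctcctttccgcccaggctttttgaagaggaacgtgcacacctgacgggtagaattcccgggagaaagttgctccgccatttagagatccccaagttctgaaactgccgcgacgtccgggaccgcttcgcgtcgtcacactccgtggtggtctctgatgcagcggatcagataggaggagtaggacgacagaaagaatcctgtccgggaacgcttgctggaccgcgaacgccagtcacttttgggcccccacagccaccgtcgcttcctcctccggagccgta
Atp5l: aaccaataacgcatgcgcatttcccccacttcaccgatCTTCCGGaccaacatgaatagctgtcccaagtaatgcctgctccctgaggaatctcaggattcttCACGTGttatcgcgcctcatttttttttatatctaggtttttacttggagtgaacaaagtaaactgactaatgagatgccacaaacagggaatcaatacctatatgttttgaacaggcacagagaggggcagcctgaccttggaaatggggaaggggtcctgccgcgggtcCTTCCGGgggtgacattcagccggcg
Ndufa10: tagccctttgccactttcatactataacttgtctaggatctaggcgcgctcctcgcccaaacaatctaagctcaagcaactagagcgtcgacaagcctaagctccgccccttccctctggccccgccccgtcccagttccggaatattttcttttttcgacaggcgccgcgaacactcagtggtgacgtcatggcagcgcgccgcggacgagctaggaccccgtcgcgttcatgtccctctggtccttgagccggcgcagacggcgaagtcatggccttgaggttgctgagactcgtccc
The Ndufb4 window holds 3 NRF1 matches, starting at positions -191, -79 and -22 from the start site. The Atp5l window holds an E-box at position -147 and ETS matches at -212 and 25, and the windows of Ndufa1 and Ndufa10 hold none of the 4 motifs. Of the 92 genes, 75 had a window, 80 windows in all. The E-box was in 8.75% of these windows, against 7.15% of all 32851 windows. NRF1 matches were in 25.0% against 4.60%, ETS matches in 23.8% against 8.86% and YY1 matches in 13.8% against 2.75%. The 6 genes with an E-box were Atp5g1, Atp5g3, Atp5l, Atp5pb, Ndufa7 and Ndufv1, of which Atp5l alone had an adjusted p of 0.05 or less. A match is a description of letters, not a binding site.

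All 6 arrays were on 1 slide. The signal was well above background for 39654 to 42719 of 56605 probes per array. Pearson's r over probes was 0.989 to 0.993 within a genotype and 0.985 to 0.989 between genotypes. The targeted gene was not lower in B41KO. One probe of Bhlhe41 was at 7.86, 7.58 and 7.40 in B41HET and 7.96, 7.90 and 7.96 in B41KO on the normalised log2 scale, with no overlap and a difference of 0.33 (adjusted p = 0.203). The other was at 7.95, 7.87 and 7.65 in B41HET and 8.56, 7.84 and 8.21 in B41KO, which overlap, with a difference of 0.38 (adjusted p = 0.33). Where these probes lie relative to the cassette is not given in the sources used here, so they do not check the genotype labels. Nothing says that the samples were independent beyond being labelled biological replicates, so p-values measure the spread between these samples.

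Most oxidative phosphorylation genes, like most genes on the array, differed little between B41KO and B41HET microglia. The largest increase was in Cox6a2, a complex IV subunit known from heart and skeletal muscle, at 1.69 times the B41HET level. Ndufb4, Ndufa1 and Cox6c were also higher, and Atp5a1, the alpha subunit of the ATP synthase, was lower on its brighter probe. A gene was called when limma gave an adjusted p of 0.05 or less, by Benjamini-Hochberg over all probes, and a log2 difference of 0.5 or more in either direction, with the brightest probe standing for the gene. Of the 92 genes 5 were called, or 5.43%, which is near the 5.45% of all named genes that were called. The 4 called higher were 4.35% of the genes, against 1.44% of all named genes, and the 1 called lower was 1.09%, against 4.01%. Without the fold threshold 8 genes passed (8.70%, against 7.56%), 5 of them higher (5.43%, against 2.13%) and 3 lower (3.26%, against 5.43%).

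**Figure D1:**
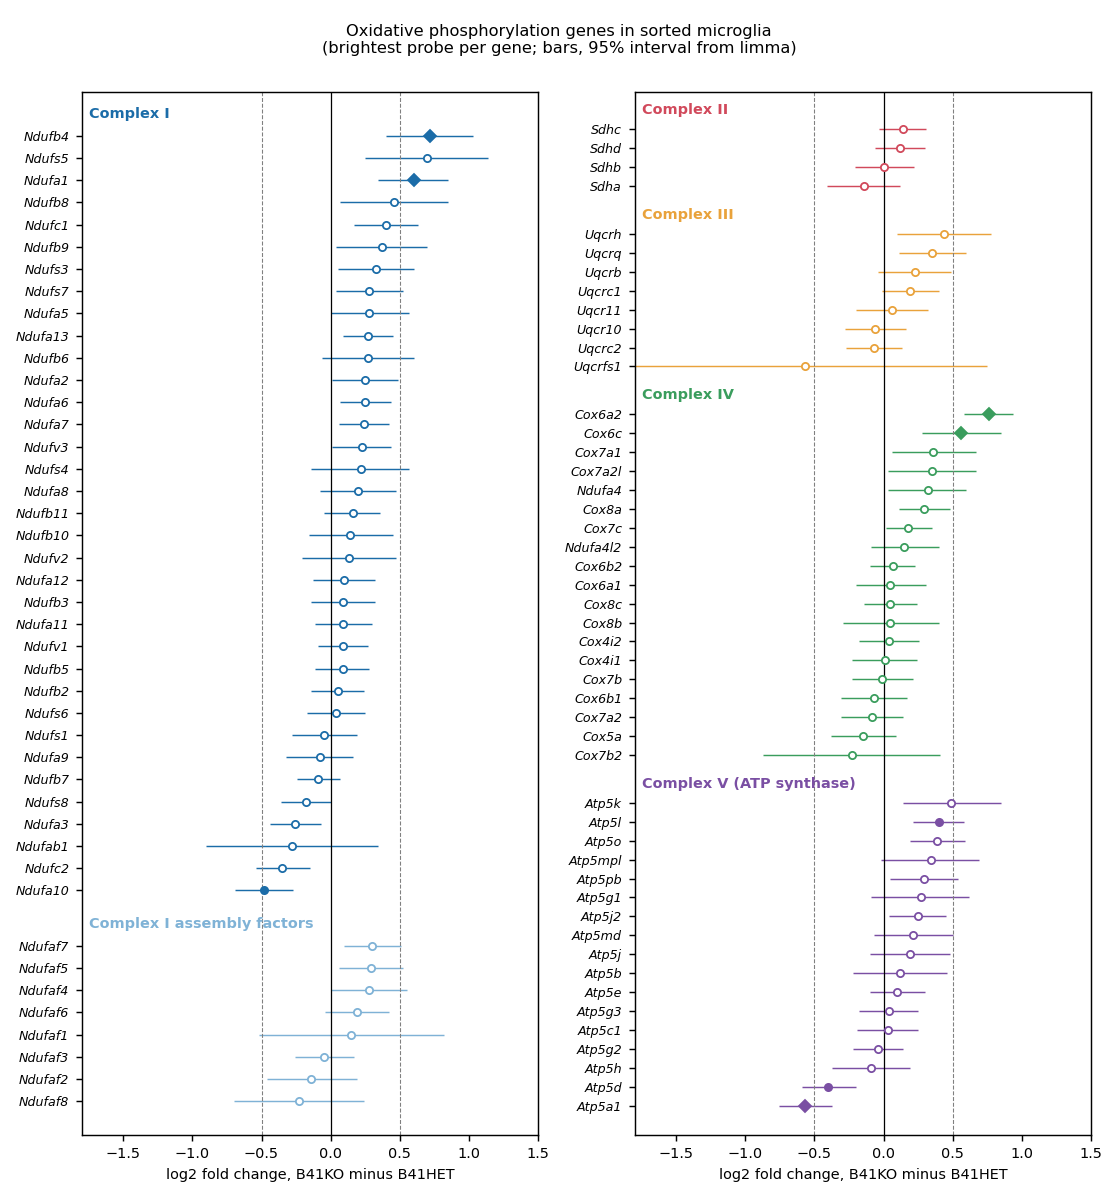
Log2 difference between B41KO and B41HET microglia (x axis) for the brightest probe of 91 of the 92 genes (y axis, by complex), with 95% intervals from limma; filled diamonds are called genes, filled circles genes that passed the adjusted p alone, open circles the others, and dashed lines mark a log2 difference of 0.5 either way. Of the 91 points 84 lie within the dashed lines, most of them to the right of 0; the interval of Uqcrfs1 runs past the left edge, to -1.89.

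The difference was above 0 in 67 genes (72.8%) and below 0 in 25, with a median of 0.14 on the log2 scale. Over all named genes the median was 0.01 and 51.2% were above 0. For 85 of the 92 genes (92.4%) the difference was smaller than 0.5 on the log2 scale, against 86.6% of all named genes. For 55 (59.8%) the whole 95% interval lay within 0.5 of 0, against 46.1%. All 3 B41KO values lay above all 3 B41HET values in 36 genes (39.1%), against 14.2% of all named genes, and below them in 8 (8.70%), against 18.0%. Relative to the mean of B41HET, the median over the 92 genes was 0.02, 0.01 and -0.04 in the B41HET arrays and 0.15, 0.17 and 0.08 in the B41KO arrays. The third B41KO array was the lowest of its genotype, and the genotypes did not overlap. When the arrays were aligned at their 75th percentile in place of quantile normalisation, the median over the 92 genes was 0.18 and that over all named genes 0.10, so the distance between them was smaller on that scale.

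**Figure D2:**
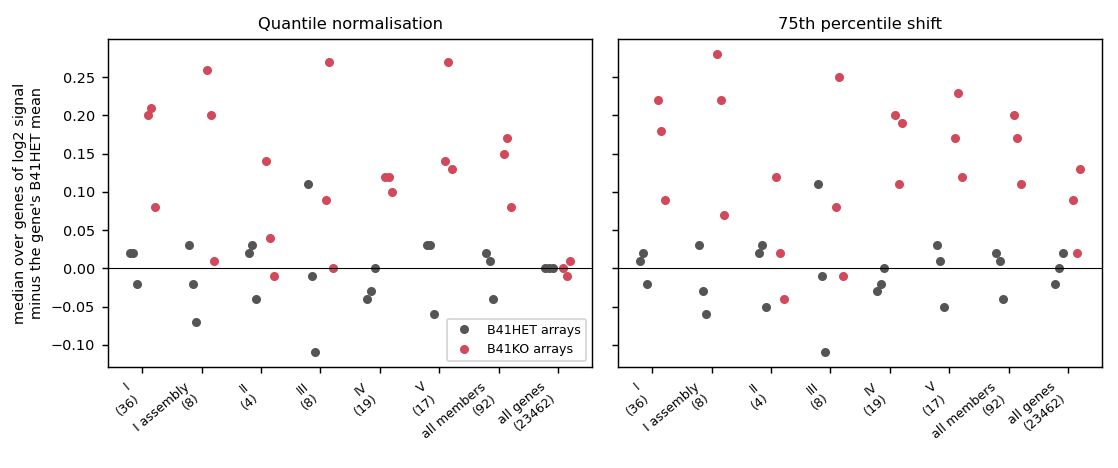
Median over the genes of each complex, over all 92 genes and over all named genes (x axis, number of genes in brackets) of the log2 signal minus the B41HET mean of the gene (y axis), 1 point per array, after quantile normalisation (left) or a shift to a common 75th percentile (right). For all 92 genes the B41KO points lie at 0.08 to 0.17 on the left and 0.11 to 0.20 on the right, while the all-gene points of B41KO lie at -0.01 to 0.01 on the left and 0.02 to 0.13 on the right.

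Complex I, which takes electrons from NADH, had genes past the test in both directions. Of its 36 genes 2 rose (Ndufb4 and Ndufa1, both called), 1 fell (Ndufa10, past the adjusted p alone) and 33 did not pass, with a median log2 difference of 0.15. The 2 called higher were 5.56% of the 36, against 1.44% of all named genes. The 1 that fell was 2.78%, against 5.43% of all named genes lower past the adjusted p. Ndufb4, an accessory subunit of the membrane arm, was at 8.38, 7.99 and 8.25 in B41HET and 8.79, 9.02 and 8.96 in B41KO on the normalised log2 scale. Every B41KO array was above every B41HET array by at least 0.41, and the difference was 0.72 ± 0.13 (SE, 3 against 3; adjusted p = 0.0351). Ndufa1, a small accessory subunit encoded on the X chromosome and needed for assembly of the complex, was at 5.78, 5.65 and 5.89 in B41HET and 6.50, 6.35 and 6.26 in B41KO. The genotypes again did not overlap, with a difference of 0.60 ± 0.10 (adjusted p = 0.0315). With normexp background correction the difference of Ndufa1 was 0.35 (adjusted p = 0.00825), below the fold threshold. Ndufa10, an accessory subunit, was at 12.30, 12.31 and 12.10 in B41HET and 11.78, 11.72 and 11.77 in B41KO. All B41KO arrays were lower, the difference was -0.48 ± 0.09 (adjusted p = 0.0349), and its other probe gave -0.48 (adjusted p = 0.0512). With the 75th percentile shift Ndufa10 did not pass (-0.47, adjusted p = 0.0572). Leaving out any 1 of the 6 arrays ended the calls of Ndufb4 (adjusted p 0.0665 to 0.107) and Ndufa1 (0.0635 to 0.106), and Ndufa10 passed only without the third B41HET array (-0.55, adjusted p = 0.049).

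The 7 nuclear-encoded core subunits of complex I, which carry the flavin and the iron-sulphur clusters, had a median difference of 0.09. None passed limma's test, and 3 of the 7 had an unadjusted p under 0.05, against 5873 of all 23462 named genes. Mitochondrially encoded core subunits were not analysed. The 29 accessory subunits had a median of 0.20. Among the core subunits Ndufs3 (0.33, 95% interval 0.05 to 0.60) and Ndufs7 (0.28, 0.04 to 0.52) were the most positive, with adjusted p of 0.155 and 0.163. Ndufs8 stood at -0.18, with Ndufv1 at 0.09. Among accessory subunits that did not pass, Ndufs5 was at 5.60, 5.83 and 5.73 in B41HET and 6.07, 6.74 and 6.45 in B41KO. Its groups did not overlap, but the B41KO arrays spread over 0.33 (SD), and the difference of 0.70 had an adjusted p of 0.0847. None of the 8 assembly factors passed limma's test (3 had an unadjusted p under 0.05), and they ran from -0.23 for Ndufaf8 to 0.30 for Ndufaf7 (adjusted p = 0.0938), with a median of 0.17 (0.26 with the 75th percentile shift).

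**Figure D3:**
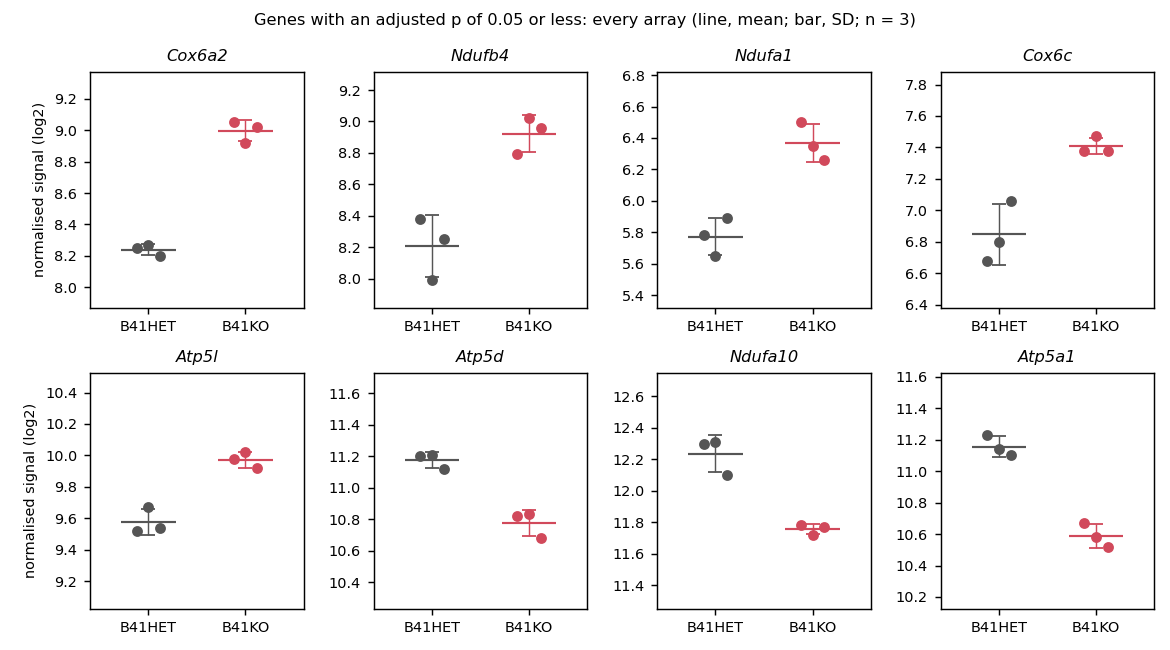
Normalised log2 signal (y axis, a separate range in each panel, not starting at 0) in the 3 B41HET and 3 B41KO arrays for the 8 genes with an adjusted p of 0.05 or less; points are arrays, horizontal lines means and bars SD. In all 8 panels the genotypes do not overlap, with B41KO above B41HET in the first 5 (Cox6a2, Ndufb4, Ndufa1, Cox6c and Atp5l) and below in Atp5d, Ndufa10 and Atp5a1.

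Complex II, succinate dehydrogenase, which is shared with the TCA cycle, had the fewest genes and the narrowest range of differences on the brightest probes. The median difference was 0.06. Its 4 genes ran from -0.14 (Sdha, the flavoprotein) to 0.14 (Sdhc, a membrane anchor), with Sdhb, the iron-sulphur subunit, at 0.00 and Sdhd, the other anchor, at 0.12. None passed limma's test or had an unadjusted p under 0.05, and for all 4 the 95% interval lay within 0.5 of 0. The second probe of Sdhb gave 0.44 (adjusted p = 0.253).

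No gene of complex III, which passes electrons from ubiquinol to cytochrome c, passed limma's test among 8, and their median was 0.13. Of the 8, 2 had an unadjusted p under 0.05, against 5873 of all 23462 named genes. Uqcrh, the hinge protein, was the most positive, at 9.31, 8.99 and 8.81 in B41HET and 9.47, 9.50 and 9.45 in B41KO. The B41KO arrays were close together and all higher, with a difference of 0.44 (95% interval 0.10 to 0.78; adjusted p = 0.126). Of the core proteins, Uqcrc1 was at 0.19 and Uqcrc2 at -0.07. Uqcrfs1, the Rieske iron-sulphur protein, gave no usable comparison: its probe was not well above background on 1 B41KO array, and its difference of -0.57 had an interval from -1.89 to 0.75.

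Complex IV, cytochrome c oxidase, held the best-separated gene. Cox6a2 was at 8.25, 8.27 and 8.20 in B41HET and 9.05, 8.92 and 9.02 in B41KO. The SD was 0.03 in B41HET and 0.07 in B41KO, the gap between the genotypes was 0.65, and the difference was 0.76 ± 0.07 (adjusted p = 0.00732). It was called with each of the 6 arrays left out in turn (0.73 to 0.80, adjusted p 0.0284 to 0.044). On the slide all 3 B41HET arrays and the first B41KO array were in row 1 and the other 2 B41KO arrays in row 2, and with slide row as a block none of the 92 genes was called by limma, against 0.853% of all named genes, Cox6a2 standing at 0.81 (adjusted p = 0.0623). Cox6c, another small nuclear-encoded subunit, was at 6.68, 6.80 and 7.06 in B41HET and 7.38, 7.47 and 7.38 in B41KO. The B41HET arrays were more spread, none reached the B41KO arrays, and the difference was 0.56 ± 0.11 (adjusted p = 0.0471). Without any 1 array its adjusted p was 0.0441 to 0.149, and it was called only without the third B41HET array (0.67, adjusted p = 0.0441). With all arrays its call was also lost with normexp (0.42, adjusted p = 0.00499) and with the 75th percentile shift (0.60, adjusted p = 0.0514). These 2 called genes were 10.5% of the complex, against 1.44% of all named genes called higher. The other 17 genes of the complex did not pass, and the median of all 19 was 0.05. It was 0.11 with the authors' processed values and 0.16 with the 75th percentile shift, where the medians of all named genes were 0.01 and 0.10.

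Several complex IV subunits exist as isoforms with a ubiquitous and a tissue-restricted form, and Cox6a2 was the 1 isoform that was called. Its ubiquitous partner Cox6a1 was at 12.25, 12.10 and 12.07 in B41HET and 12.28, 12.27 and 12.03 in B41KO. These values overlapped, and the difference was 0.05 (95% interval -0.20 to 0.31). Cox7a1, a muscle form, was at 0.36 (adjusted p = 0.156) and Cox7a2l, which takes part in supercomplex assembly, at 0.35 (0.186), whereas Cox7a2 was at -0.08. Cox8a, the ubiquitous form, was at 0.29 (0.0812) and Cox8b at 0.05. Cox4i1 and Cox4i2 stood at 0.01 and 0.04, Cox6b1 and Cox6b2 at -0.07 and 0.07, Cox7b at -0.01, and Ndufa4 and Ndufa4l2 at 0.32 and 0.15. Cox5a was at -0.15, the lowest of the complex among genes well above background on all arrays. Cox7b2 and Cox8c, forms known from testis, were not well above background on any array, and no fold is given for them. Differences between isoforms in the effect of genotype were not tested.

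Complex V, like complex I, had 3 genes past the test. Of 17 genes 1 rose (Atp5l, not called), 2 fell (Atp5a1, called, and Atp5d) and 14 did not pass, with a median of 0.19. The 2 that fell were 11.8% of the 17, against 5.43% of all named genes lower past the adjusted p. The 1 that rose stands against 2.13% of all named genes. Atp5a1, the alpha subunit of the catalytic head, was at 11.23, 11.14 and 11.10 in B41HET and 10.67, 10.58 and 10.52 in B41KO on its brighter probe. All B41KO arrays were lower there, with a difference of -0.57 ± 0.08 (adjusted p = 0.0196). Its dimmer probe gave 7.68, 7.57 and 7.40 in B41HET and 7.82, 7.84 and 7.67 in B41KO, which overlap, with a difference in the opposite direction of 0.22 (adjusted p = 0.264). The mean over both probes differed by -0.17 (adjusted p = 0.331), and on the brighter probe Atp5a1 was called only without the first B41KO array among the 6 fits that left out an array (-0.61, adjusted p = 0.0493).

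Atp5d, the delta subunit of the central stalk, was at 11.20, 11.21 and 11.12 in B41HET and 10.82, 10.83 and 10.68 in B41KO. The genotypes did not overlap, and the difference was -0.40 ± 0.08 (adjusted p = 0.0442). Atp5l, subunit g of the membrane part, was at 9.52, 9.67 and 9.54 in B41HET and 9.98, 10.02 and 9.92 in B41KO. All B41KO arrays were higher, by 0.40 ± 0.08 on average (adjusted p = 0.0413). Neither gene passed when any 1 array was left out, with adjusted p from 0.0927 to 0.147 for Atp5d and 0.0842 to 0.124 for Atp5l, or with the 75th percentile shift (0.0734 and 0.0769). Atp5b, the beta subunit of the catalytic head, was at 0.12 and Atp5c1, the gamma subunit of the central stalk, at 0.03. Atp5k, subunit e, had the most positive value, 0.49 (95% interval 0.14 to 0.85; adjusted p = 0.11), and Atp5o, the peripheral stalk subunit OSCP, stood at 0.39 with an adjusted p just above the threshold. The 3 genes that encode the same mature subunit c of the rotor, Atp5g1, Atp5g2 and Atp5g3, were at 0.27, -0.04 and 0.04, and none passed.

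Of the 92 genes 22 had more than 1 probe. The probes of a gene gave differences of the same sign in 13 of these and of mixed sign in 9, and no gene passed the test on every probe. The mixed signs include values near 0, as on the other probes of Ndufb8 (-0.01 ± 0.15, SE) and Atp5pb (-0.02 ± 0.12), and the other probe of Ndufa7 (-0.40 ± 0.52), which was well above background on only 1 array of each genotype. Besides Atp5a1, the probes of Ndufa3 stood apart, at 11.82, 11.77 and 11.70 in B41HET and 11.53, 11.56 and 11.43 in B41KO on the brighter probe. That probe was lower in every B41KO array (-0.26, adjusted p = 0.114), and the dimmer probe was higher in every one (0.30, adjusted p = 0.112). Uqcr10 stood at -0.06 and 0.39 (adjusted p = 0.762 and 0.0682). Other genes were alike on both probes, such as Ndufaf7 (0.30 and 0.32) and Ndufa5 (0.28 and 0.30). The transcript forms that each probe detects were not examined.

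**Figure D4:**
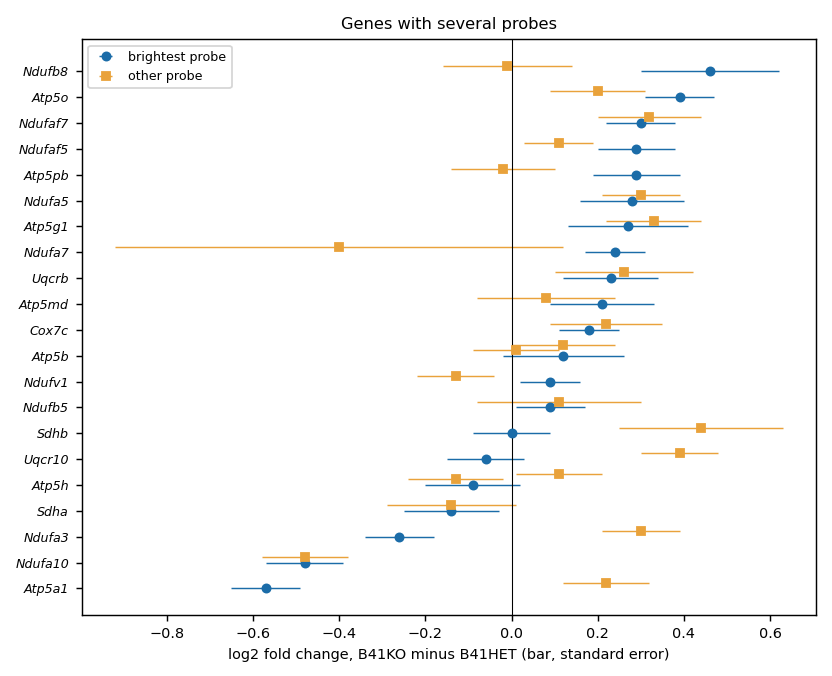
Log2 difference between B41KO and B41HET (x axis) for the brightest probe (blue circles) and the other probes (orange squares) of 21 of the 22 genes with several probes (y axis); bars are standard errors. In 8 of them the probes lie on different sides of 0, with the 2 points of Atp5a1 at -0.57 and 0.22.

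The difference varied with the signal. When the 92 genes were divided at the quartiles of their mean log2 signal (7.12, 8.81 and 10.43) into sets of 23, the median difference was 0.15, 0.23 and 0.14 in the dimmer 3 sets and -0.04 in the brightest. Over all named genes in the same ranges it was 0.01, 0.02, -0.01 and -0.05. In the brightest set 11 of 23 genes were above 0, and the 3 genes that fell past the adjusted p were in this set, 3 of 23, against 314 of the 2287 named genes in that range (13.7%). The 5 that rose were in the dimmer sets, 1, 3 and 1 of 23, against 1.56%, 3.13% and 3.20% of all named genes in the same ranges. What part the signal level has in the differences was not tested.

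**Figure D5:**
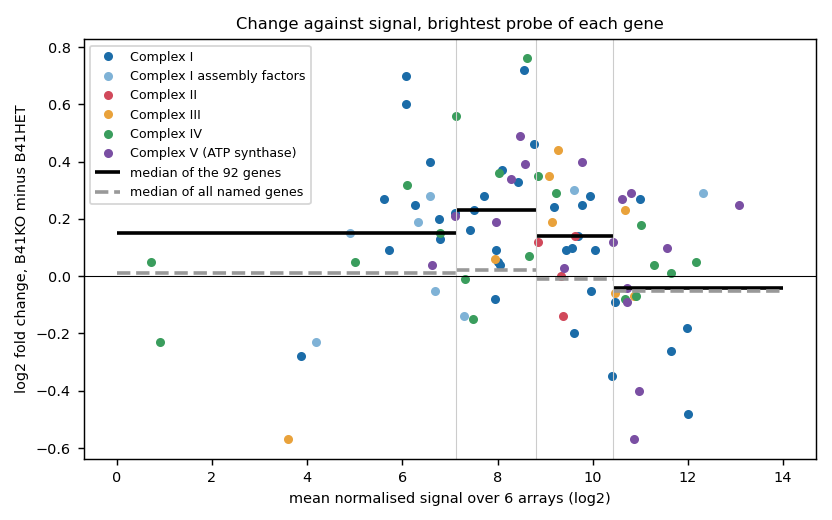
Log2 difference between B41KO and B41HET (y axis) against the mean normalised log2 signal over the 6 arrays (x axis) for the brightest probe of the 92 genes, coloured by complex; black lines are medians of the 92 genes and dashed grey lines medians of all named genes in 4 ranges of signal divided at the quartiles of the 92 genes. The black line stands at 0.15, 0.23, 0.14 and -0.04 from the dimmest to the brightest range, and the grey line at 0.01, 0.02, -0.01 and -0.05.

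Among genes that work beside the complexes, the medians were at or near 0 or below it. The 78 mitochondrial ribosomal protein genes, whose products translate the mitochondrially encoded subunits, had a median of -0.02, with 2 called higher (2.56%, against 1.44% of all named genes) and 3 lower (3.85%, against 4.01%). Of 18 TCA cycle genes, which supply NADH and succinate, 1 was called higher and 1 lower, with a median of 0.01. Each was 5.56% of the list, against 1.44% of all named genes called higher and 4.01% called lower. Idh2, the NADP-dependent isocitrate dehydrogenase of mitochondria, was at 11.36, 11.26 and 11.25 in B41HET and 10.35, 9.90 and 10.31 in B41KO. Every B41KO array was lower by at least 0.90, and the difference was -1.10 ± 0.14 (adjusted p = 0.0143), larger than that of any of the 92 genes. Ogdh, the first component of the oxoglutarate dehydrogenase complex, was at 10.29, 10.23 and 10.24 in B41HET and 10.74, 10.76 and 10.78 in B41KO. The genotypes were well apart, with a difference of 0.51 ± 0.06 (adjusted p = 0.0143).

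Of 18 genes for cytochrome c, electron transfer flavoprotein and coenzyme Q synthesis, 2 fell past the adjusted p (11.1%, against 5.43% of all named genes) and none was called, with a median of -0.11. These were Coq9 (-0.45, adjusted p = 0.0344) and Pdss2 (-0.44, 0.0466), which both serve the synthesis of coenzyme Q, the carrier between complexes I or II and III. Of 43 other assembly factors of the complexes, with a median of -0.05, 2 were called lower (4.65%, near the 4.01% of all named genes), Sdhaf1 (-0.62 ± 0.10, adjusted p = 0.0252) and Coa4 (-0.50 ± 0.09, adjusted p = 0.0357), and Sdhaf2 fell past the adjusted p alone (-0.48, 0.0385). Sdhaf1 and Sdhaf2 help to assemble complex II, whose 4 subunits did not pass the test, and Coa4 helps to assemble complex IV. None of 16 regulators of mitochondrial biogenesis passed by limma, and their median was -0.06. Of the 16, 5 had an unadjusted p under 0.05, against 5873 of all 23462 named genes. Nrf1 was at -0.29 (adjusted p = 0.0795) and Tfam, which packages and transcribes mitochondrial DNA, at -0.43 (0.24). Of the 16 regulators, 7 were above 0 and 9 below. None of the 13 mitochondrially encoded subunits was matched to a probe through its accession, so they were not analysed here.

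The sorted cells carried the defining markers of microglia on all arrays, and some markers of other cells differed between the genotypes. The summed signal of 12 microglia markers was 185277 to 199909 in B41HET and 181595 to 189483 in B41KO, with 1 of the 12, Fcrls, called lower (-0.76). The summed signal of 12 neutrophil markers was 31120 to 35012 in B41HET and 6271 to 6658 in B41KO. Of the 12, 9 were called lower, whereas 4.01% of all named genes were. Those not called were Mmp8 (-0.61, adjusted p = 0.0535), Elane (-0.04, 0.917) and Mpo (0.39, 0.157). Mpo was higher in every B41KO array than in any B41HET array. For 10 border macrophage markers the sums were 2587 to 2784 in B41HET and 1738 to 1910 in B41KO, with 6 called lower (60.0%, against 4.01%). Stab1 (-0.49, not called) gave 81.8% of this signal, and without it the sums were 524 to 570 and 271 to 281. For 8 endothelial markers they were 1216 to 1324 and 469 to 515, with 2 called lower (Ly6c1 and Pecam1), or 25.0% against 4.01%. The other endothelial markers well above background were at -0.13 (Cldn5), 0.04 (Slco1a4) and -0.01 (Kdr), and none of these passed the test. Flt1, Cdh5 and Tek were not well above background on any array. None of 10 neuron markers passed by limma, and 5 of them (Syt1, Gad1, Slc17a7, Nefl and Stmn2) were well above background on no array. Of the 10, 2 had an unadjusted p under 0.05, against 5873 of all 23462 named genes. Snap25 gave 97.9% of the summed signal of the 10 and was at 14.29 to 14.43 in B41HET and 14.33 to 14.39 in B41KO. Of 8 astrocyte markers 4 were above 0 and 4 below, with a median of 0.01, and none passed by limma, with 1 at an unadjusted p under 0.05. Their sums were 1922 to 2001 in B41HET and 2108 to 2329 in B41KO, and without Slc1a3, which gave 52.2% of the signal, they overlapped at 908 to 960 and 906 to 1197. The sums of 10 oligodendrocyte markers were 2036 to 2085 in B41HET and 2026 to 2341 in B41KO, with 1 called lower. Of 8 B and T cell markers 1 was called lower, Cd79a (-0.99). In sorted bulk samples fewer cells of a type and less RNA per cell cannot be told apart. The part of these markers' cells in the oxidative phosphorylation differences was not tested.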

How the data were processed

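Microglial RNA was labelled with Cy3 and hybridised to Agilent SurePrint G3 Mouse arrays, 1 sample per array. The authors deposited 1 scanner output per array (Feature Extraction 11.5.1.1), whose processed intensity was background-subtracted and not normalised between arrays, and a table of 56745 log2 values after their own normalisation, of which 140 are control probes. The table was used as an alternative only, and ranked probes like the scanner values (Spearman's rho rounds to 1 on every array).

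From the scanner files, control spots were dropped, as were outlier-flagged spots (95 to 136 of 59305 per array), processed intensities were taken to log2 and quantile normalised, spots of a probe were averaged, and probes with at least 2 values in each genotype were fitted with limma 3.58.1 in R 4.3.3 by genotype, 3 against 3, with no covariate. P-values were adjusted by Benjamini-Hochberg over 56601 probes. This test, normalisation and threshold follow the study's methods. The script was tested on simulated data. The number of arrays limits the precision. No spot was saturated.

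Names came from the transcript accession of the probe through RefSeq (GRCm38.p6), which named 33767 probes (59.7%). Promoter sequences are RefSeq's, on the same build. The genes, the lists of related genes and markers and the rules were chosen with earlier results of these data known. Named genes were those called, the extremes of each complex, core subunits (some are not printed), the isoform groups, genes whose probes differ, and called genes of the related lists. Ndufs5, Atp5o, Uqcr10, Ndufa5, Nrf1, Tfam, Coq9, Pdss2, Sdhaf2 and the genes past the adjusted p alone were added after their values were seen. The alternatives were another scaling, the authors' values, another background correction, a filter on dim probes, outlier spots kept, another variance model, replicate number or slide row as a block, each array left out, other rules for several probes, and another fold threshold. The values of some genes are not reported here by name, though they are counted.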

Additional observations from a re-analysis of the deposited data

How the results depend on the processing

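The median difference of the 92 genes was between 0.12 and 0.18 under all alternatives, on the log2 scale, and no value for the 8 genes past the adjusted p changed direction under any of them. Counts moved more, as did the share of all named genes called (5.45% as reported). Each share in brackets is of genes called, in either direction, with the fold threshold. The share of all named genes past the adjusted p alone was not computed for the alternatives, so counts past it have none beside them. With the 75th percentile shift (5.29% of all named genes called) 3 of the 92 genes were higher and 1 lower past the adjusted p. With normexp (3.37%) 2 were called higher and 2 lower, and 15 were higher and 5 lower past the adjusted p. The filter on dim probes (8.04%), which kept 90 of the 92 genes, gave 8 higher and 4 lower past the adjusted p. The trended and robust variance (6.06%) gave 10 higher and 5 lower past it. Averaging the probes of a gene (4.15%) left 0 called lower, as did a fold threshold of 1.5 (4.26%). With 1 array left out (1.56% to 2.99%), 1 to 2 genes were called higher and 0 to 1 lower, and 1 to 2 were higher and 0 to 1 lower past the adjusted p; these fits have fewer samples.

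The replicate numbers do not pair the samples, since deviations of same-numbered samples correlated at 0.0276, 0.0136 and 0.0478. With the replicate block (0.0895% of all named genes called) 0 of the 92 genes were called in either direction and 0 passed the adjusted p, higher or lower, and the same 4 counts were 0 with slide row as a block (0.853%), which leaves only the first B41KO array to be compared with the B41HET arrays. Cox6a2 then stood at 0.76 (adjusted p = 0.0747) and 0.81 (0.0623), and it was called in the other 14 of 16 alternatives. Signal over background limits Uqcrfs1, Cox7b2, Cox8c and the other probe of Ndufa7.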
